A study of Drosophila melanogaster with 12 samples.

Results

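Eye-antennal imaginal discs that overexpressed the mutant splicing factor Prp8H>R were compared with discs that overexpressed wild-type Prp8 (Prp8wt), across every gene that the authors' comparison table lists at a p under 0.05. The table holds 1207 genes, of 3525 genes listed in at least 1 of the 3 mutant comparisons. The Prp8H>R discs carried ey-Gal4 and a UAS transgene for Prp8-H2369R, and their Prp8wt counterparts carried ey-Gal4 and UAS Prp8-WT. Values from discs with Prp8-S2178F (Prp8S>F) and Prp8-F2374L (Prp8F>L) are given beside those of Prp8H>R for a few genes. All 4 genotypes thus overexpressed a Prp8 transgene, placed by the authors in a common landing site, on top of the endogenous Prp8 genes. Many discs of larvae at the third larval stage, 7 days after egg laying at 25 °C, were pooled for each library, and each genotype had 3 libraries. The ey-Gal4 driver acts early and not in every cell of the disc, so a library mixes cells that express the transgene with cells that do not.

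Prp8 is the large core protein of the U5 snRNP and of the U4/U6.U5 tri-snRNP, the particle that enters the spliceosome before its activation. Its C-terminal Jab1/MPN domain holds the helicase Brr2 in check, and missense mutations there in human PRPF8 cause autosomal dominant retinitis pigmentosa, a loss of photoreceptors. In the larval eye disc, a wave of differentiation called the morphogenetic furrow turns dividing progenitors into photoreceptors and cone cells, whose axons grow towards the brain.

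The depth behind these values was similar across groups, with somewhat fewer reads in Prp8H>R. Prp8H>R libraries held 45.7 to 48.7 M reads and Prp8wt libraries 48.2 to 54.5 M (M, 1000000 reads; two-sided exact permutation test, p = 0.2). Uniquely mapped reads did not overlap between the groups, with 36 to 37.5 M in the Prp8H>R libraries against 38 to 43.9 M in the Prp8wt libraries, and neither did the share of stranded reads, at 98.5% to 98.7% in Prp8H>R and 98.8% in each Prp8wt library. Both gave p = 0.1 by the exact permutation test, the smallest p that 3 libraries against 3 allow. No expression value per library was used here, so genes have no spread, no test across libraries and no check without a library, and the disc label could not be checked against marker levels. A gene outside the table is unlisted, which does not mean unchanged. The table lists 6.48% of all annotated genes and 8.07% of the protein-coding ones, which is the background for how many members of a gene list it holds. These gene lists were chosen with earlier results of these data known, and several share members, so they are not separate evidence.

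Most listed fold changes between Prp8H>R and Prp8wt discs were small. Whether the authors shrank them towards no change is not given in the sources used here. Of the 1207 listed genes, 525 were higher in Prp8H>R (43.5%) and 682 were lower (56.5%), with a median absolute fold change of 1.13 and a median log2 fold change of -0.10. A total of 1198 genes (99.3%) lay under a fold change of 1.5, and 58.2% lay between 1.1 and 1.2. By size, 323 genes were under 1.1-fold (139 higher, 184 lower), 702 between 1.1 and 1.2 (316 higher, 386 lower), 136 between 1.2 and 1.3 (43 higher, 93 lower), 37 between 1.3 and 1.5 (20 higher, 17 lower) and 9 at 1.5 or more (7 higher, 2 lower). The lower genes thus outnumbered the higher ones most clearly between 1.2 and 1.3-fold. The authors write a lower value as a negative fold change, and this is kept here.

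The sources used here do not say whether the deposited p is adjusted for multiple testing. It was therefore adjusted (Benjamini-Hochberg) across all 18358 annotated genes, with unlisted genes at a p of 1, and below a gene is said to have risen or fallen only where this adjusted p was under 0.05. This held for 287 genes, of which 107 rose (0.583% of annotated genes) and 180 fell (0.98%). All but 9 of these changes were under 1.5-fold, so 100 genes rose and 178 fell below that size. The smallest adjusted p is 0.000172, which is an upper limit because a p listed as 0 was entered as 1e-06.

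**Figure D1:**
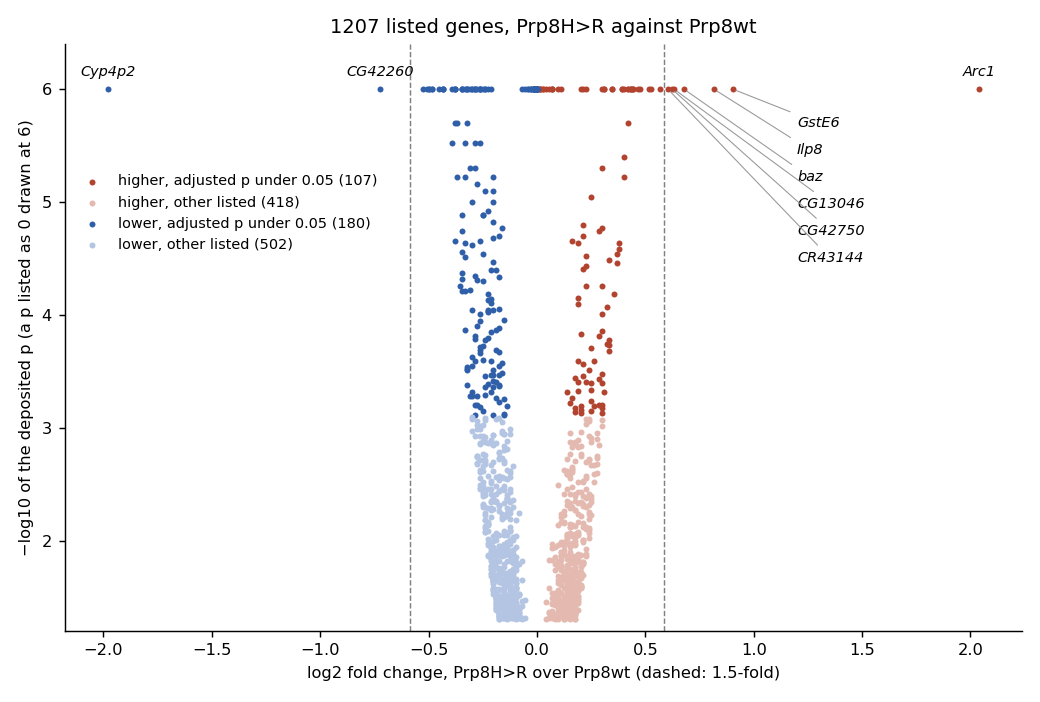
Each point is one of the 1207 listed genes, with the log2 fold change of Prp8H>R over Prp8wt on the horizontal axis and −log10 of the deposited p on the vertical axis (94 genes with a p listed as 0 are drawn at 6). Nearly all points lie between the dashed 1.5-fold lines, and the 9 genes outside them are named; 38 of the genes at the top lie under a fold change of 1.1, close to 0 on the log2 scale.

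Of the listed genes, 7 rose (0.58%) and 2 fell (0.166%) past a fold change of 1.5. Arc1, whose Gag-like protein forms capsids that carry RNA at synapses, had a fold change of 4.11, the largest rise in the table. GstE6, a glutathione S-transferase gene, was 1.87-fold higher. Ilp8, which encodes a relaxin-like hormone that damaged discs release to delay pupariation, was 1.76-fold higher. The polarity gene baz, the fly Par-3, was 1.6-fold higher, the uncharacterised CG13046 1.55-fold, CG42750, annotated to proteolysis, 1.54-fold and the non-coding RNA gene CR43144 1.52-fold. Cyp4p2, a cytochrome P450 gene, had a fold change of -3.94, the largest fall, and CG42260, annotated as a cyclic nucleotide-activated cation channel, one of -1.65.

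Positions are given on BDGP6 (dm6). Arc1 (FBgn0033926) occupies chr2R:14357927-14360297, Cyp4p2 (FBgn0033395) chr2R:9237512-9239831 and Ilp8 (FBgn0036690) chr3L:17029812-17032080. One annotated gene overlaps Ilp8 on its own strand, 5 overlap CG42750 on its strand and 4 overlap CG42260 on the other strand. How the authors' counting used strand and overlap is not given in the sources used here. The values of these 3 genes may therefore include reads of neighbours. The same holds for other named genes with overlaps, such as qtc, CG10936 and ru. GstE6 has close paralogs beside it, and reads that fit several of them make its separate value uncertain.

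Just inside the fold threshold were CG13046, CG42750 and CR43144, and just outside it, on the higher side, CG17572 (1.48), Or19b (1.44) and CG14984 (1.43). On the lower side the pseudogene CR32010 (-1.44), CG31918 (-1.42), St2 (-1.41), Cadps (-1.41), Cyp4p1 (-1.4) and nolo (-1.4) came nearest. CG17572, CG31918 and nolo are annotated to proteolysis, St2 encodes a sulfotransferase, and Cadps a protein of the release of dense-core vesicles. Or19b has a near-identical copy, Or19a, which makes its value uncertain. The further rises among the largest 15 were those of the serpin gene Spn47C (1.39), CG15784 (1.38), the ABC transporter gene FBgn0010549 (1.36), CG17669 (1.36) and CG17211 (1.35). The further falls were those of CG10936 (-1.37), the ARID-domain regulator retn (-1.35), the calcium-activated potassium channel gene SK (-1.35), CG3649 (-1.35), CG16786 (-1.31), qtc (-1.31) and SP2353 (-1.3), a gene annotated to rhabdomere development.

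The GO columns of the table give at least 1 term to 1044 of the 1207 genes, and 188 terms hold at least 8 listed genes. A term's genes were counted as higher or lower and set beside all listed genes, of which 43.5% were higher. The median log2 fold change was above 0 in 49 terms and below 0 in 137. In 9 terms at least 85% of the listed genes were higher, and in 24 terms at least 85% were lower. Genes of DNA replication, DNA repair, the mitotic spindle and the nucleolus stood on the higher side, while those of axons, neuromuscular junctions, the plasma membrane, actin binding and sensory organs stood on the lower side. Terms share genes, so these are not separate results, and no enrichment test was run. The 163 genes with no term in any column were 70 higher and 93 lower, close to the share of all listed genes.

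**Figure D2:**
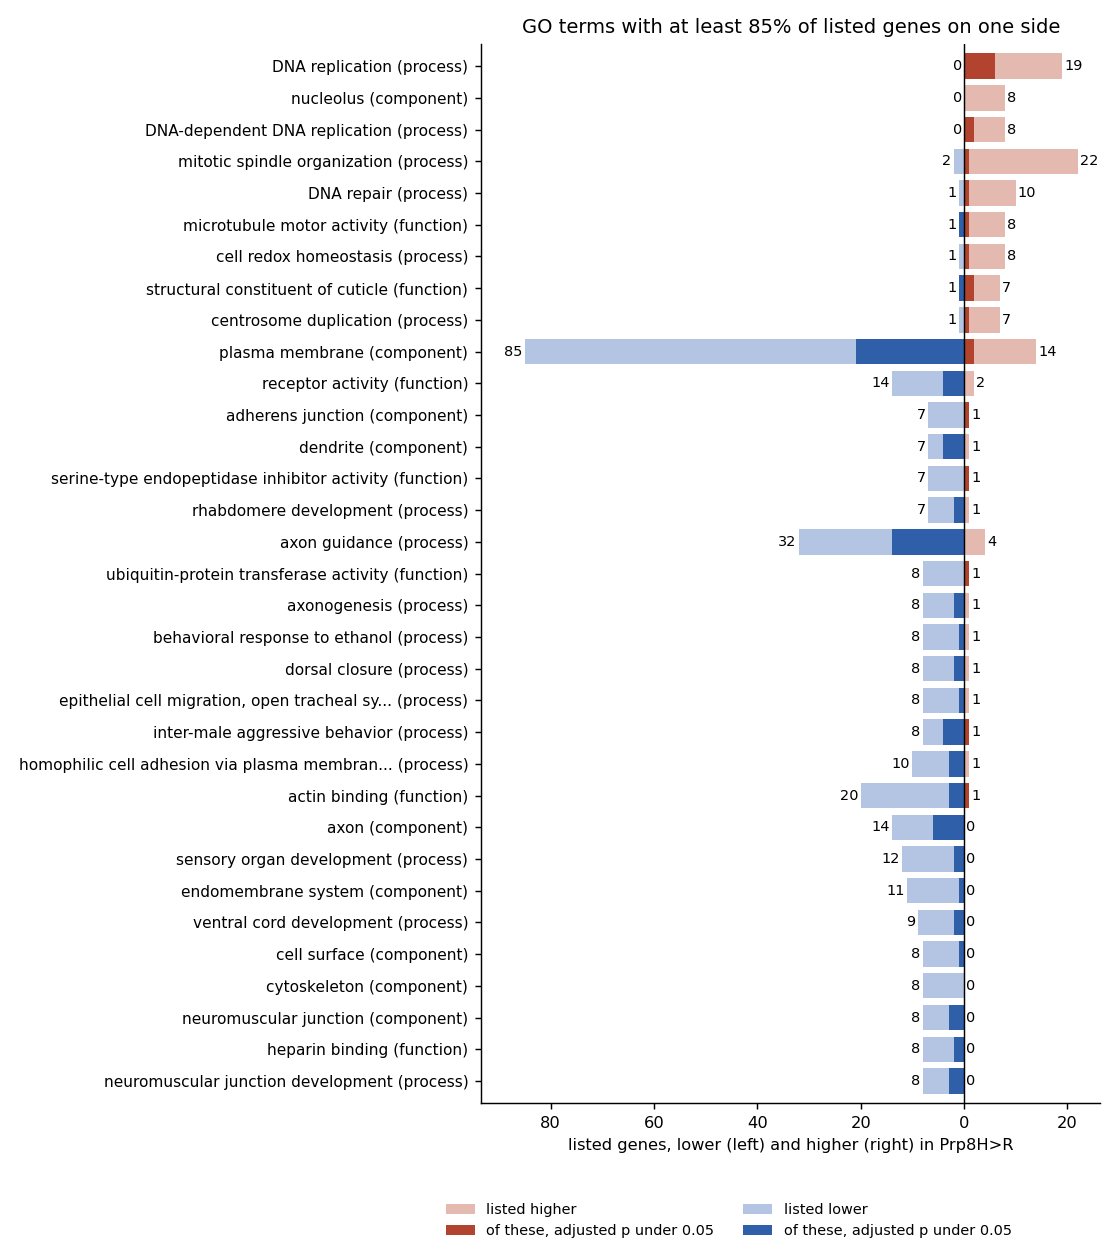
Each row is a GO term with at least 85% of its listed genes on one side, and the bars count genes lower in Prp8H>R to the left and higher to the right, with genes that pass the adjusted p in the darker shade. DNA replication (19 higher, 0 lower) heads the 9 higher terms, and the plasma membrane (14 higher, 85 lower) is the longest bar among the 24 lower terms.

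All 19 listed genes of the term DNA replication were higher in Prp8H>R, at fold changes of up to 1.19 and a median log2 fold change of 0.18, and 6 of them rose. These were Mcm3 (1.16), Mcm6 (1.15) and Mcm5 (1.14), subunits of the replicative helicase, RnrL (1.14), the large subunit of ribonucleotide reductase, RPA2 (1.16), a subunit of the single-strand binding complex, and DNApol-alpha73 (1.19), a subunit of the polymerase that primes replication. A replication list, chosen with earlier results of these data known, shares many of these genes and is not separate support. Of its 48 genes with an identifier, 20 were listed, all higher, and 5 rose. Among the 11 genes of DNA repair 10 were higher, led by RPA2 (1.16), the photolyase gene phr (1.17, adjusted p = 0.0564) and RPA3 (1.15, adjusted p = 0.175), and CG5316 (-1.13) was lower. Of these, only RPA2 passed the adjusted p. The p53 and damage list had 8 of 31 genes listed, all higher, but only RnrL rose, and RnrL belongs to the replication list as well.

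Several GO terms of cell division and of the nucleolus and mitochondrion held mostly higher genes, by similarly small amounts. Of the 24 genes of mitotic spindle organization 22 were higher and 2 lower, and only the kinesin gene ncd (1.13) rose. PCNA (1.13) and the Mcm4 gene dpa (1.12), which act in replication, also carry this term. Of 9 microtubule motor genes 8 were higher. The exception was unc-104 (-1.13), the kinesin that carries synaptic vesicle precursors, which fell. All 8 nucleolus genes were higher, among them Nop60B (1.12, adjusted p = 0.0779), the pseudouridine synthase of rRNA, and Nopp140 (1.09, adjusted p = 0.112), and none passed the adjusted p. Of the 37 mitochondrion genes 29 were higher and 8 lower. In that term the chaperone gene Hsp60A (1.11) rose, and Cyp12a5 (-1.26) and Gs1 (-1.22), a glutamine synthetase, fell. Of the ribosome biogenesis list 8 of 51 genes (15.7%) were listed, all higher and none past the adjusted p. Mitosis genes (4 of 55, 7.27%), mitochondrial translation genes (4 of 86, 4.65%), cytoplasmic ribosomal proteins (3 of 85, 3.53%) and the proteasome (1 of 33, 3.03%) were listed no more often than the protein-coding genes as a whole. Their listed members were higher, none passed the adjusted p, and these few genes give no direction for their lists.

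The term neurogenesis went the other way from the other nervous system terms, with 53 of 67 genes higher. Many of its members are genes of dividing cells, and 28 of the 67 also carry a term of replication, repair, spindle, microtubule, mitochondrion, nucleolus or splicing. Of those 28, 26 were higher. The other 39 were 27 higher and 12 lower, so the share was also above that of all listed genes there. The EF-hand gene CG10126 (1.28) and the ubiquitin ligase subunit Cul2 (1.14) rose among these, and the tubulin gene betaTub60D (-1.12) fell.

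Genes of photoreceptor and cone cell differentiation were mostly lower in Prp8H>R discs. The list was chosen with earlier results of these data known, so its direction is not independent evidence. It held 65 genes with an identifier, and 35 were in the table (53.8%, against 8.07% of all protein-coding genes). Of these, 32 were lower and 3 higher, with a median log2 fold change of -0.20, where 56.5% of all listed genes were lower. Of the 35 genes 17 fell and 1 rose, beside 180 falls and 107 rises among all 1207 listed genes. Those that fell include transcription factors of the differentiating eye: peb (-1.27), gl (-1.21), which opens the photoreceptor programme, lz (-1.2) and sv (-1.29), which act in cone cells, onecut (-1.24) and run (-1.25). They include the rhomboid protease gene ru (-1.25) and sev (-1.22), the receptor that specifies the R7 photoreceptor. The visual protein kinase C gene inaC (-1.26), nerfin-1 (-1.23), a zinc finger factor of young neurons, and the RNA-binding gene cpo (-1.23) fell too. The pan-neuronal gene elav (-1.14, adjusted p = 0.0744) did not pass. In the same list caup (1.23), an Iroquois gene, rose, and ey (1.1, adjusted p = 0.147), which is active ahead of the furrow, was listed higher.

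The GO term compound eye development was less one-sided, with 15 of 21 genes lower and 6 higher, and compound eye morphogenesis held 5 higher and 4 lower genes, with ru falling and caup rising. Of the retinal determination list 6 of 22 genes were listed, 4 higher and 2 lower, and besides caup and ey the higher ones were Optix (1.15, adjusted p = 0.0912) and upd1 (1.14, adjusted p = 0.609). In bulk discs, fewer cells of a type and less RNA per cell cannot be told apart. Of the phototransduction list, 3 of 32 genes were listed, all lower: CG42260, inaC and ninaB (-1.17, adjusted p = 0.27).

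Axon and synapse genes were lower as well. All 14 genes of the cellular component axon were lower, and 6 fell, among them gogo (-1.2), a receptor of photoreceptor axons, the microtubule protein gene tau (-1.27), the cadherin gene CadN (-1.16) and unc-104. Of the 36 genes of axon guidance 32 were lower and 4 higher, and 14 fell, among them retn, gogo, nerfin-1 and the adhesion gene Nrt (-1.15). All 8 genes of the neuromuscular junction and all 8 of its development were lower, at fold changes down to -1.27 and -1.17, and these terms share members. The synapse list had 25 of 84 genes listed, 21 lower and 4 higher, and 9 fell. They encode proteins of vesicle release, Cadps, Syt1 (-1.27), the calcium sensor, and nSyb (-1.26), the vesicle SNARE, the acetylcholine-degrading enzyme Ace (-1.27), the channel SK and surface proteins such as Dscam3 (-1.3) and Nrx-1 (-1.22). The receptor subunit gene nAChRalpha5 (1.16) rose against this trend.

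At the cell surface, 85 of 99 plasma membrane genes were lower, of which 21 fell and 2 of the higher genes rose. Among the falls with a p listed as 0 were Ace, the amyloid precursor homologue Appl (-1.26), ru and sev, and Dscam3 (-1.3) fell most. Of 31 cell adhesion genes 25 were lower, and 7 fell, with nrm (-1.16), Dscam3 and the cadherin genes Cad88C (-1.22) and CadN among them. Of 21 actin binding genes 20 were lower. The formin genes DAAM (-1.2) and Fhos (-1.14) and the villin-like qua (-1.16) fell, while another formin gene, form3 (1.24), was the one that rose. All 8 heparin binding genes were lower, with Appl and miple2 (-1.12) falling. Of the 8 genes of serine protease inhibitors 7 were lower and none of these passed, whereas Spn47C of the same term rose.

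Genes of Notch signalling and of the selection of neural precursors were lower. One list held proneural genes, genes of the E(spl) and Bearded families and others such as nerfin-1, Dl and neur. Of its genes 13 of 29 were listed (44.8%, against 8.07% of all protein-coding genes), all lower, where 56.5% of all listed genes were lower. The list was chosen with earlier results of these data known. Its members nerfin-1, scrt and phyl are also in the photoreceptor list. Of the 13 genes 4 fell, beside 180 of all 1207 listed genes: E(spl)m2-BFM (-1.22), E(spl)mdelta-HLH (-1.18), nerfin-1 and E(spl)malpha-BFM (-1.15). E(spl) genes are direct targets of Notch, and the Bearded-family proteins restrain its ligand. The Notch co-activator gene mam (-1.13) fell, and fng (1.11, adjusted p = 0.117), which modifies Notch, was listed higher. Of 52 genes of the Notch, Wnt, Hedgehog, Dpp and EGFR pathways 13 were listed, 12 of them lower. The EGF pathway genes ru, which releases the ligand, and aos (-1.15), a secreted antagonist, fell together. All 12 genes of sensory organ development and all 9 of ventral cord development were lower, 2 falling in each, and both terms share members with the E(spl) and proneural list.

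The listed genes of the tissue damage list were higher, though only 4 of them passed the adjusted p. Of 30 genes of the JNK and tissue damage list with an identifier, 10 were listed, all higher, with a median log2 fold change of 0.26 against -0.10 for all listed genes. Besides Arc1 and Ilp8, the ETS factor gene Ets21C (1.31), a target of JNK, and Gadd45 (1.23) rose. The matrix protease gene Mmp1 (1.18, adjusted p = 0.0538), chinmo (1.21, adjusted p = 0.0912), the cytokine genes upd3 (1.09, adjusted p = 0.237) and upd1 (1.14, adjusted p = 0.609), Xrp1 (1.09, adjusted p = 0.37) and the AP-1 subunit gene kay (1.07, adjusted p = 0.71) were listed higher without passing. The list was drawn up with earlier results of these data known, so its direction is not independent evidence. Of 19 apoptosis genes 3 were listed and none passed. The pro-apoptotic gene rpr was 1.2-fold higher (adjusted p = 0.132), and Diap1, which encodes an inhibitor of caspases, had a fold change of -1.1 (adjusted p = 0.168). All 6 listed innate immunity genes, of 43, were higher, and the antimicrobial peptide gene Mtk (1.15) rose.

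Detoxification genes moved in both directions. Of 46 glutathione genes with an identifier 12 were listed, 8 higher and 4 lower. GstE6, its neighbour GstE7 (1.16) and GstD10 (1.03) rose, and GstO3 (-1.18) and the catalase gene Cat (-1.13) fell. The rise of GstD10 rests on a p listed as 0 at a fold change of 1.03, a pattern taken up below. Of 86 P450 and other detoxification genes 11 were listed, 6 higher and 5 lower. The falls were those of the neighbours Cyp4p2 and Cyp4p1 (-1.4), which are paralogs on arm 2R, of Cyp12a5 and of Cyp6a17 (-1.22), and the rise that of the aldehyde oxidase gene AOX3 (1.24). In the term cell redox homeostasis 8 of 9 genes were higher. CG17843 (1.31) rose there, and the peroxiredoxin genes Jafrac1 (1.14, adjusted p = 0.0783), Prx6005 (1.17, adjusted p = 0.12) and Prx3 (1.12, adjusted p = 0.245) did not pass. Of the 10 ABC transporter complex genes 8 were higher, and FBgn0010549, w (1.3), CG33970 (1.26) and CG9281 (1.12) rose. The gene w, which encodes a pigment precursor transporter, is also the usual marker of fly transgenes.

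Few genes of the splicing lists were in the table, which does not mean that the others were unchanged. Values per gene do not measure splicing itself. Prp8 itself had a fold change of 1.14 in Prp8H>R (adjusted p = 0.00285) and 1.36 in Prp8S>F, and was unlisted for Prp8F>L. Such a value sums transcripts of the transgene and of the endogenous gene, and 4 genes overlap Prp8 on its strand, so it does not check the transgene. Of 20 genes of the U5 and tri-snRNP list with an identifier Prp8 was the one listed, and of 52 other splicing factors 2 were listed, mbl (-1.08, adjusted p = 0.374) and how (-1.08, adjusted p = 0.753). The term mRNA splicing held 7 higher and 6 lower genes, near the share of all listed genes, and besides Prp8 the branch point binding gene SF1 (-1.1) passed, as a fall. All 4 listed snRNA genes were higher, a group noticed after its values were seen. Among them snRNA:U12 (1.17), an RNA of the minor spliceosome, rose, and snRNA:U2:38ABa (1.18), snRNA:U2:34ABa (1.12, adjusted p = 0.0744) and snRNA:U2:14B (1.11, adjusted p = 0.757) did not pass. The U2 genes are copies of each other, so reads cannot be assigned to one of them with certainty, and snRNA:U2:34ABa was lower in Prp8S>F (-1.36) and in Prp8F>L (-1.19).

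Markers of other cell types were also in the table, several lists at a higher rate than the 8.07% of all protein-coding genes. Of 31 hemocyte markers 7 were listed (22.6%), all lower, and lz (-1.2) and lectin-28C (-1.23) fell, while He (-1.21, adjusted p = 0.0912) and eater (-1.14, adjusted p = 0.501) did not pass. The gene lz is also in the photoreceptor list, since it acts in blood cells and in the eye. Glial markers (6 of 24, 25%) were 3 higher and 3 lower, with Tsf1 (1.3) rising. Muscle markers (9 of 29, 31%) were 4 higher and 5 lower, with Mlc1 (1.23) rising and ths (-1.16) falling. Brain and ring gland markers (3 of 33, 9.09%) were 1 higher and 2 lower, fat body markers (2 of 18, 11.1%) 1 and 1, and antennal and peripodial markers (4 of 26, 15.4%) 1 and 3. The higher fat body marker is Tsf1, also a glial marker, and the lower one Lsp1alpha (-1.01), with a p listed as 0. Of the photoreceptor list, 53.8% of the genes were listed. The part of such cells in the lower neuronal and eye genes was not tested. In the ecdysone response list 8 of 28 genes were listed, 2 higher and 6 lower, and the nuclear receptor gene Eip75B (-1.16) fell. Heat shock genes (3 of 32, 9.38%) and genes of the unfolded protein response (2 of 23, 8.7%) were listed at about the rate of all protein-coding genes. Of the dosage compensation and sex list fru (1.17, adjusted p = 0.263) was the one listed of 21.

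**Figure D3:**
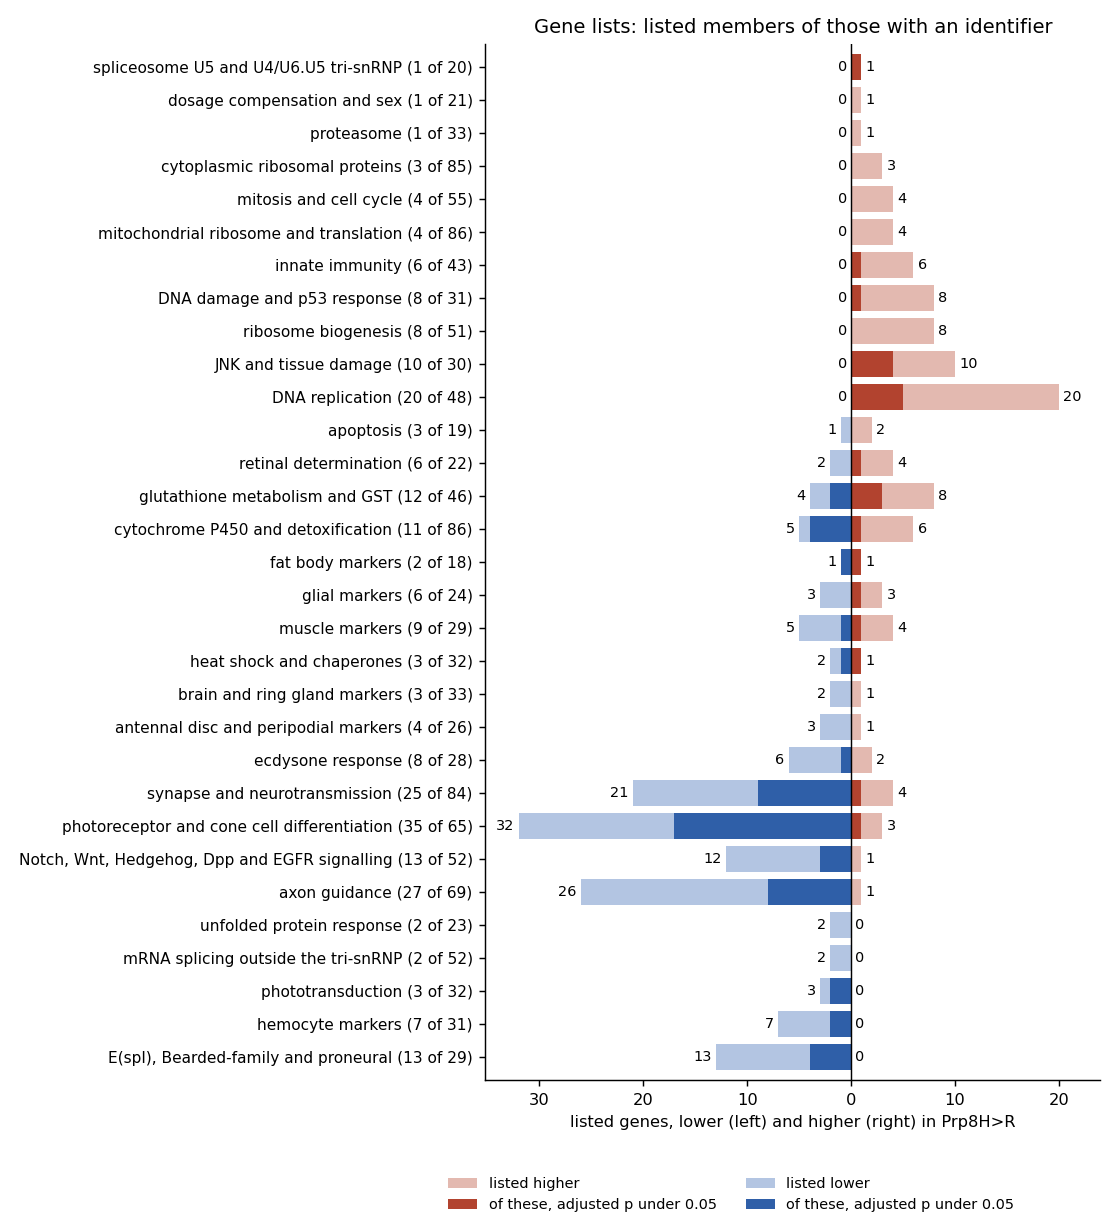
Each row is a gene list, with the number of listed members and of genes with an identifier in brackets, and bars count members lower (left) and higher (right) in Prp8H>R, with the adjusted p passed in the darker shade. DNA replication (20 higher, 0 lower) and JNK and tissue damage (10 higher, 0 lower) stand opposite to photoreceptor genes (3 higher, 32 lower), axon guidance (1 higher, 26 lower) and E(spl), Bearded-family and proneural genes (0 higher, 13 lower). Lists share members, such as gogo, onecut, Nrt and nerfin-1 in both the photoreceptor and the axon guidance list, so the rows are not separate results.

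A group of 38 genes combined a p listed as 0 with a fold change under 1.1, 13 higher and 25 lower. Of the 41 listed genes under a fold change of 1.05, 32 belong to it. The group has the smallest listed fold changes in the table, from ng2, CG17362, CG9040, CG14850 and CG14852 (each -1). It includes the salivary gland gene ng3 (-1.02), the larval serum protein gene Lsp1alpha (-1.01), the heat shock gene Hsp70Bbb (-1.01), bam (1.05), a germline gene, and GstD10. Several of these genes are known mainly from other larval tissues. Without the group, 94 genes rose and 155 fell, 249 in all. These genes pass the adjusted p at listed sizes close to no change, so the counts are given with and without them. The sources used here do not say whether fold changes were shrunken towards no change. These values may therefore not measure how large the changes were. In the other 2 comparisons 90 genes of Prp8S>F and 75 of Prp8F>L had the same combination.

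Genes that were lower in Prp8H>R were long. Among listed protein-coding genes, the median span from the first to the last annotated base was 3038 bases for the 484 higher genes and 8428 bases for the 644 lower ones, against 2162 bases for all 13986 annotated protein-coding genes. The longest intron had a median of 279.5 bases in the higher and 2594 bases in the lower genes. The gap was there in each size class, with medians of 2791 and 8656 bases for higher and lower genes under 1.1-fold, 2928 and 8169 between 1.1 and 1.2, 5326 and 8046 between 1.2 and 1.3, and 3314 and 12620 between 1.3 and 1.5. Among genes that passed the adjusted p, without the 38 genes above, the medians were 4118 bases for those that rose and 14860 for those that fell.

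Lower genes outnumbered higher ones most in the longest genes. Of the listed genes in the fifth with the longest spans (over 6458 bases), 130 were higher and 363 lower, which makes 4.65% and 13% of the annotated genes in that group. In the 4 shorter groups the percentages of annotated genes listed higher were 1.42, 2.56, 4.18 and 4.5, from short to long, and those listed lower 1.53, 1.73, 2.32 and 4.47, so higher genes clearly outnumbered lower ones in the second and the third group, and the numbers were nearly equal in the first and the fourth. Long genes are often neuronal or membrane genes, so the listed genes were also split by such terms. Genes lacking any term count among those without them. Whether these terms account for the direction was not tested. Over 20000 bases, 78.4% of 116 listed genes with axon, synapse, neuron, adhesion, plasma membrane or eye terms were lower, and so were 77.5% of 129 without them. Up to 20000 bases the shares were 52.4% of 212 and 51% of 671. Transcript length was also greater in lower genes, at a median of 3328 bases against 2131 in the higher ones. Where transcripts were over the annotated median of 1699 bases, 77.9% of 244 genes with a span over 20000 bases were lower, and 55.1% of 575 with a shorter span. The genes could not be matched on expression level, since no levels were used here.

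**Figure D4:**
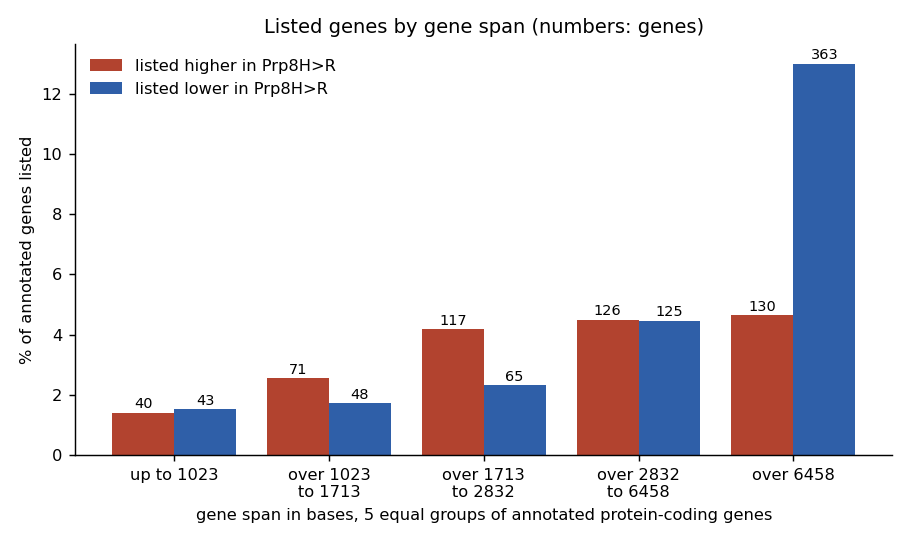
Bars give, for 5 groups of annotated protein-coding genes of rising span, the percentage listed higher (left bar) and lower (right bar) in Prp8H>R, with the number of genes above each bar. In the second and the third group the higher genes are more frequent, and in the longest group 363 lower genes stand beside 130 higher ones.

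Values of the other mutants are given beside those of Prp8H>R for a few genes. All 3 comparisons use the same Prp8wt libraries, so their values are not independent, and differences between mutants could not be tested. Arc1 had fold changes of 4.11 in Prp8H>R, 4.67 in Prp8S>F and 1.27 in Prp8F>L, so its size in Prp8H>R was near that in Prp8S>F. For GstE6 the values were 1.87, 3.77 and 1.23 in the same order, for Ilp8 1.76, 2.85 and 1.12, and for Ets21C 1.31, 3.05 and 1.07. Spn47C had 1.39 in Prp8H>R, 3.26 in Prp8S>F and 1.35 in Prp8F>L. Many other risen genes, such as baz, Mcm5 and caup, are unlisted for Prp8F>L. Among the falls, retn -1.35, -1.6 and -1.23, peb -1.27, -1.63 and -1.21, and Cadps -1.41, -1.6 and -1.19, in the order Prp8H>R, Prp8S>F and Prp8F>L.

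Other falls had a smaller size in Prp8H>R than in either of the other mutants. CG42260 had -1.65 in Prp8H>R, -2.36 in Prp8S>F and -2.1 in Prp8F>L, Dscam3 -1.3, -1.63 and -1.41, and nerfin-1 -1.23, -1.7 and -1.33, and the same held for Ace, cpo, lz and run. Still other genes differed in sign or were unlisted elsewhere. Cyp4p2 had a fold change of -3.94 in Prp8H>R and -5.12 in Prp8F>L but 1.52 in Prp8S>F, and its neighbour Cyp4p1 had -1.4 and -1.54 but 1.7. Cyp6a17 had -1.22 in Prp8H>R, 1.21 in Prp8S>F and -1.16 in Prp8F>L. CG17572 (1.48) and FBgn0010549 (1.36) were listed in Prp8H>R alone of the 3 comparisons, and so was snRNA:U12. The fold changes of CG31918 (-1.42 in Prp8H>R, -1.26 in Prp8S>F, -1.3 in Prp8F>L), CR32010 (-1.44, -1.26 and -1.2) and CG3649 (-1.35, -1.21 and -1.29) were of larger size in Prp8H>R than in the others, without a test of the difference. Of the replication genes, Mcm3 had 1.16 in Prp8H>R and 1.21 in Prp8S>F, and Mcm6 1.15 and 1.18, and both are unlisted for Prp8F>L.

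**Figure D5:**
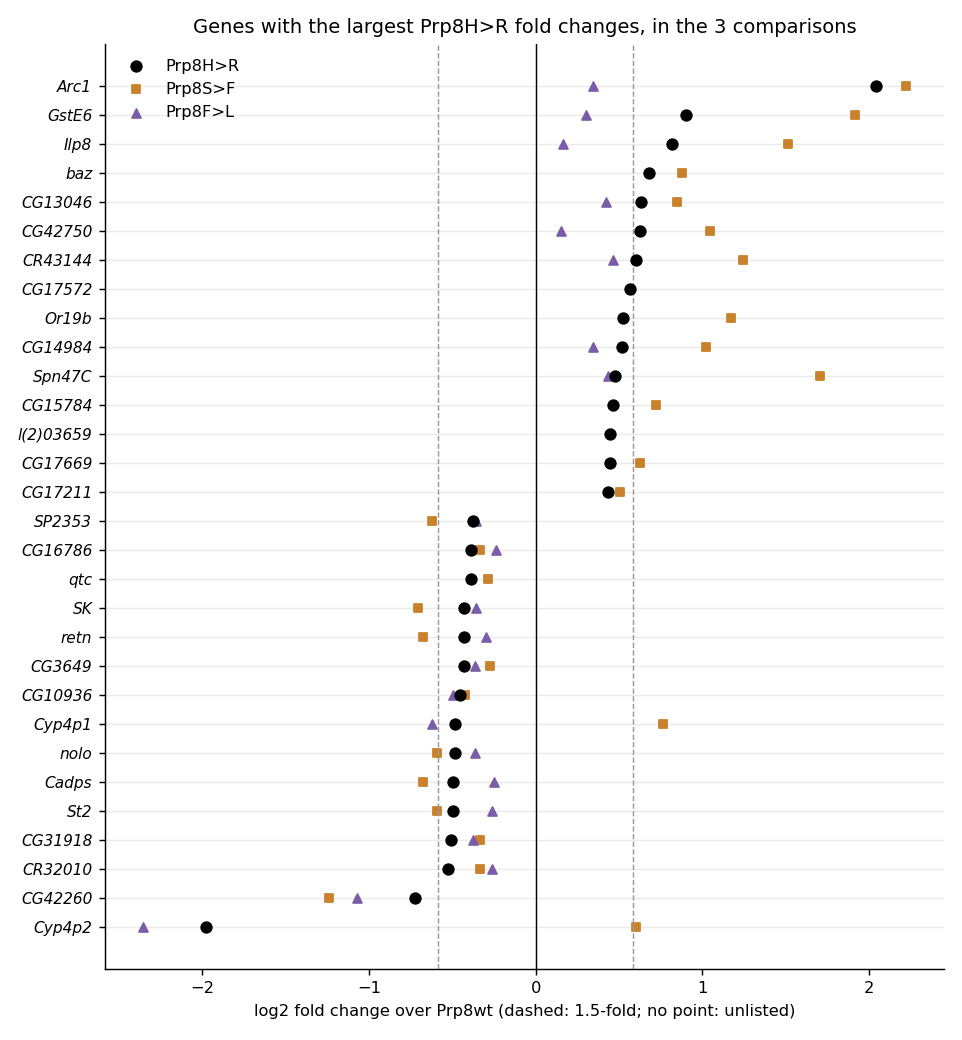
Points give the log2 fold change over Prp8wt of 15 risen and 15 fallen genes, those of largest size in Prp8H>R (circles), beside Prp8S>F (squares) and Prp8F>L (triangles), with no point where a gene is unlisted. Cyp4p2 and Cyp4p1 lie left of 0 in Prp8H>R and Prp8F>L and right of it in Prp8S>F, and the genes were chosen for their Prp8H>R values. FBgn0010549 is drawn under its symbol, between CG15784 and CG17669.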

How the data were processed

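RNA of eye-antennal discs was sequenced in 3 libraries each of Prp8H>R, Prp8S>F, Prp8F>L and Prp8wt. FastQC, TopHat2 2.0.10 and DESeq2, with the genome builds BDGP6 and dm6, are named in the submitters' processing notes. The authors deposited signed fold changes (mutant over Prp8wt) with p-values rounded to 6 decimals for genes with a p under 0.05, each with GO terms, and quality reports with numbers of reads and the percent of stranded reads. A p listed as 0 is below 1e-06, per the deposited legend. Whether fold changes were shrunken towards 0 is not given in the sources used here. The authors' Venn and GO cluster sheets were not used.

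The authors' own comparison columns were used because no expression value per library was analysed here. The planned tests on counts could not be run, and the plan for tables of comparisons was followed instead. The gene br, with 2 entries, was counted once. Fold changes were turned into log2 values, and p was adjusted with the Benjamini-Hochberg procedure across 18358 genes (Ensembl release 115, without transposable elements). Of the 1207 genes 1189 matched that annotation. The adjustment was tested on simulated data. GO terms with at least 8 listed genes were described. For 18 genes a GO cell was not analysed here. The 31 gene lists (1314 of 1393 entries matched), like the choice of this comparison, were made with earlier results of these data known. Genes were named by a rule: Prp8, genes past a fold change of 1.5, the 15 largest rises and falls with an adjusted p under 0.05, up to 4 members with the smallest p per list and GO term, and the 5 smallest fold changes (all under 1.1) with a p listed as 0. Further genes (such as run, sv, gl, Cat, chinmo, upd3, upd1, kay, Cul2, bam, ng3 and the snRNA genes) were chosen with their values in view. Library measures were compared by two-sided exact permutation tests. Nothing in the sources says whether replicates came from separate crosses, so p-values may measure technical spread. Python 3.11.15, numpy 2.4.6, pandas 2.3.3, scipy 1.17.1 and matplotlib 3.10.9 were used. Promoter motifs were not analysed here.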

Additional observations from a re-analysis of the deposited data

How the results depend on the processing

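Of the counts past a p of 0.05 and a fold change of 1.5 (7 higher, 2 lower), neither a p under 0.01 nor the adjusted p changed any. A fold change of at least 2 left 1 higher and 1 lower gene, a lower threshold of 0.32 on the log2 scale gave 38 higher and 46 lower, and no fold threshold gave 525 and 682. With the adjusted p in place of the deposited p, 107 genes were higher and 180 lower. A Bonferroni adjustment left 44 higher and 67 lower. Among these are all 38 genes with a p listed as 0 and a fold change under 1.1 (13 higher, 25 lower). Leaving out these 38 small changes from the 107 and 180 genes left 94 and 155. This alternative was chosen after seeing the data for this count. The mean in place of the median turned the direction of the P450 and detoxification list to -0.19 on the log2 scale, since Cyp4p2 alone is past a fold change of -3. With members of an adjusted p under 0.05 alone, the share higher left its 95% Wilson interval in 83 of 182 GO terms, upwards in 25 and downwards in 58, and in 6 of 16 lists. A fold change of at least 1.1 did so in 9 of 188 terms and 2 of 17 lists. These intervals cover counting error only and treat genes of the same libraries as independent. The smaller sets are parts of the full ones and often hold few genes, so these counts do not measure robustness.

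Without each library in turn, the difference in reads (Prp8H>R minus Prp8wt) ranged from -6.18 to -3.03 M, that in uniquely mapped reads from -5.08 to -2.13 M and that in stranded reads from -0.3 to -0.2 percentage points. No paired analysis was possible because no expression value per library was used, and the fits with a replicate block, with edgeR and with DESeq2 were not run for the same reason.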

Other observations

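Listed genes differed in direction between chromosome arms. On chromosome 4, 17 of 80 annotated protein-coding genes were listed (21.2%), 2 higher and 15 lower, and 6 fell: CG33978, Sox102F, Ekar, onecut, sv and Cadps. The pseudogene CR32010 (-1.44) lies there too. On the other arms with listed genes 7.25% to 8.54% of annotated protein-coding genes were listed, and the share higher was 38.1% on 3L, 38.3% on 3R, 46.7% on 2L, 46.9% on X and 47.5% on 2R. Genes of chromosome 4 are long, with a median span of 10090 bases, against 1986 to 2521 bases on these arms. No test was run, and the genes were not matched for span.

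Neighbouring genes were sometimes listed together. Of consecutive annotated protein-coding genes, 134 pairs had both genes listed, 44 pairs both higher, 55 both lower and 35 in opposite directions. In 16 pairs both genes passed the adjusted p, 13 of them in the same direction. Without the genes with a p listed as 0 and a fold change under 1.1 these were 11 pairs, 9 of them in the same direction. Examples are Arc1 (4.11) with its paralog Arc2 (1.23), GstE6 (1.87) with GstE7 (1.16) and Cyp4p2 (-3.94) with Cyp4p1 (-1.4), while RnrL (1.14) and its neighbour Schip1 (-1.27) moved apart. These pairs were chosen with their values in view.

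Of 53 listed non-coding RNA genes 28 were higher and 25 lower, and 7 rose and 2 fell, or 5 and 1 without genes with a p listed as 0 and a fold change under 1.1. Of the 9 snoRNA class genes 6 were higher and 3 lower, and snoRNA:Psi18S-176 (1.16) rose. The histone genes listed were 4 higher and 1 lower. Of the higher ones, His3:CG33803 (1.0) and His1:CG33834 (1.02) belong to the genes with a p listed as 0 and a fold change under 1.1. These few genes give no direction for the histones.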
